A study of Mus musculus with 6 samples.

Results

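Histidine is broken down to glutamate in the liver by 4 enzymes, and the last of them hands a one-carbon unit to folate. The genes described here are these 4, Hal, Uroc1, Amdhd1 and Ftcd, and 4 enzymes that interconvert or release folate-bound one-carbon units, Aldh1l1, Mthfd1, Mthfd2 and Mthfs. They were chosen by gene symbol, and 8 rows of the 55450 genes in the deposited table carry these symbols. The livers came from 3 mice with loxP-flanked LKB1 alleles (LKB1 fl/fl, called knockout or KO) and from 3 wild-type (WT) mice, all with the strain given as C57BL/J. Every mouse of both groups was injected at 6 weeks of age with AAV8 Cre, an adeno-associated virus carrying the Cre recombinase, and the left lobe was taken 4 weeks later, at 10 weeks of age. AAV8 is used to reach hepatocytes; the promoter of Cre is not given in the sources used here, and the lobe was not separated into cell types. LKB1 is a kinase that activates AMPK and related kinases, and its gene symbol is Stk11.

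In the pathway, histidine ammonia-lyase (Hal) removes ammonia from histidine to give urocanate, urocanase (Uroc1) hydrates urocanate, and imidazolonepropionase (Amdhd1) opens the ring to give formiminoglutamate. Formimidoyltransferase cyclodeaminase (Ftcd) moves the formimino group to tetrahydrofolate, frees glutamate and releases a second ammonia, leaving methenyl-tetrahydrofolate. The trifunctional cytosolic enzyme Mthfd1 interconverts methylene-, methenyl- and formyl-tetrahydrofolate, Aldh1l1 oxidises the formyl group to CO2, Mthfs returns the storage form of formyl-folate to the pool, and Mthfd2 is a mitochondrial dehydrogenase and cyclohydrolase that is usually low in adult tissue. Liver is a main site of histidine breakdown, and Hal and Uroc1 are known as enzymes of the periportal part of the lobule.

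The 4 histidine genes lie on 2 chromosomes. In GRCm38 (GENCODE M21), Hal (chromosome 10, 93488768 to 93519304, plus strand) and Amdhd1 (chromosome 10, 93523338 to 93540033, minus strand) are neighbours that face each other across 4033 bases. Ftcd is on the same chromosome (76575648 to 76590338, plus strand), 3.525 Mb from Stk11. Uroc1 (chromosome 6, 90333284 to 90364551, plus strand) lies 121875 bases from Aldh1l1 (90486427 to 90600203, plus strand). The other members are Mthfd1 on chromosome 12 (76255298 to 76319803, plus strand), Mthfd2 on chromosome 6 (83305691 to 83325908, minus strand) and Mthfs on chromosome 9 (89210676 to 89377713, plus strand). All 8 are annotated as protein-coding, with the identifiers ENSMUSG00000020017.14 (Hal), ENSMUSG00000034456.15 (Uroc1), ENSMUSG00000015890.2 (Amdhd1), ENSMUSG00000001155.13 (Ftcd), ENSMUSG00000030088.15 (Aldh1l1), ENSMUSG00000021048.7 (Mthfd1), ENSMUSG00000005667.8 (Mthfd2) and ENSMUSG00000066442.17 (Mthfs).

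The promoters shown are those of the 4 histidine genes. Every knockout liver lay above every WT liver for each of them, as also for Aldh1l1 and Mthfd1, although only Ftcd and Uroc1 passed the test. Each line gives the bases just upstream of the start site, 5′ to 3′ on the gene's strand, from the RefSeq promoter table for GRCm38.p6, in which all 8 members were found. For Uroc1 the last 5 bases before the RefSeq start were left out because GENCODE places them inside the gene. Capitals mark matches, on either strand, to CCAAT, to the TATA box core TATAAA or to TGACG, the core of the cAMP response element.
Hal, chr10:93488518-93488767, plus strand: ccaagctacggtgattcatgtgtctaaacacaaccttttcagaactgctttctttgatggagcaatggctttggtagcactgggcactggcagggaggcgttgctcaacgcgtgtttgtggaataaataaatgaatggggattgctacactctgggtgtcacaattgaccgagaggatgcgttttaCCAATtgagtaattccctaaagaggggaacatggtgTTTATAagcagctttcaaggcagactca
Uroc1, chr6:90333039-90333283, plus strand: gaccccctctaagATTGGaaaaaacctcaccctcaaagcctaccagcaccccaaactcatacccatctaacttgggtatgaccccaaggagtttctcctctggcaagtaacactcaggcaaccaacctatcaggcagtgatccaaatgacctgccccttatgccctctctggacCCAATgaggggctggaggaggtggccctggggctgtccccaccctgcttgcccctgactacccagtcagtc
Amdhd1, chr10:93540034-93540283, minus strand: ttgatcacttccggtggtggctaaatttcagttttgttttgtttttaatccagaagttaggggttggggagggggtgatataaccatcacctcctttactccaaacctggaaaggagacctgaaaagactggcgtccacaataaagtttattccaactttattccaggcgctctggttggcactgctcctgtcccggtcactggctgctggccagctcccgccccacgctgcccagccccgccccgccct
Ftcd, chr10:76575398-76575647, plus strand: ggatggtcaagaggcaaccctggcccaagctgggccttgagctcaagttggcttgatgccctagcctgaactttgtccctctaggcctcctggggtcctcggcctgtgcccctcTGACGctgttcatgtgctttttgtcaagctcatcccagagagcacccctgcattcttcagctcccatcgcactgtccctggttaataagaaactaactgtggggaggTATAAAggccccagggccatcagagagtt

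Positions count back from the RefSeq start. Ftcd holds TATAAA on its own strand from 29 to 24 bases before the start, and Hal holds it on the opposite strand from 28 to 23 bases before. Of all 32851 windows of 250 upstream bases in the table, 12.4% hold TATAAA on either strand. Hal and Uroc1 hold CCAAT on their own strand from 64 to 60 and from 76 to 72 bases before the start, and 33.8% of all windows hold it on either strand. The windows of Aldh1l1, Mthfd1 and Mthfd2 also hold it on either strand, which makes 5 of the 8 members. Ftcd alone of the 8 members holds TGACG, from 136 to 132 bases before its start, against 17.8% of all windows. The full cAMP response element TGACGTCA (1.55% of windows), the ATF4 motif TGATGNAA (3.45%), the HNF4 motif CAAAGTCCA (0.384%), the HNF1 motif (0.371%), the E-box CACGTG (6.02%) and the glucocorticoid receptor core AGAACA (16.1%) are in none of the members' windows, and the forkhead element TGTTTAC (3.17%) is in that of Mthfs alone. The Amdhd1 window holds none of the motifs searched. TGACG is contained in TGACGTCA, and a match describes letters only.

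Each library came from 1 mouse. Between 47659122 and 56147667 counts were assigned per library. Stk11 was at 11.4 to 22.1 CPM (counts scaled to a common library size) in the knockout livers and at 64.2 to 69.7 CPM in the WT livers, and its log2 fold change was -2.06 ± 0.247 (SE, edgeR adjusted p = 0.0167). This call was lost in edgeR when knockout 2, knockout 3, WT 2 or WT 3 was left out, with adjusted p-values up to 0.104. Replicate 1 of each group carried Xist counts (42472 in knockout, 29243 in WT) and the other 4 libraries carried Y-linked counts (6146 to 8199), a difference the labels do not describe. The 4 libraries with Y-linked counts and the pair with Xist counts are therefore also given separately. Within a group, Xist state cannot be told apart from the single liver that carries it.

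Of the 8 members, 2 passed an adjusted p-value of 0.05 and both were higher in knockout, Ftcd and Uroc1. Among all 14539 genes tested, 2.15% were called higher and 3.37% were called in either direction. In 6 of the 8 members every knockout liver lay above every WT liver, which was so for 16.9% of tested genes, and groups without overlap in either direction made up 32.4%. The median log2 fold change of the members was 0.81, against 0.01 over all tested genes, and 7 of the 8 were above 0. All 8 passed the filter on low counts. The 4 histidine genes together summed to 2831 ± 642 CPM in the knockout livers, against 1388 ± 46.5 CPM in WT livers (mean ± SD, n = 3). In a whole lobe, more RNA per hepatocyte and more of the hepatocytes that carry these transcripts cannot be told apart.

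**Figure D1:**
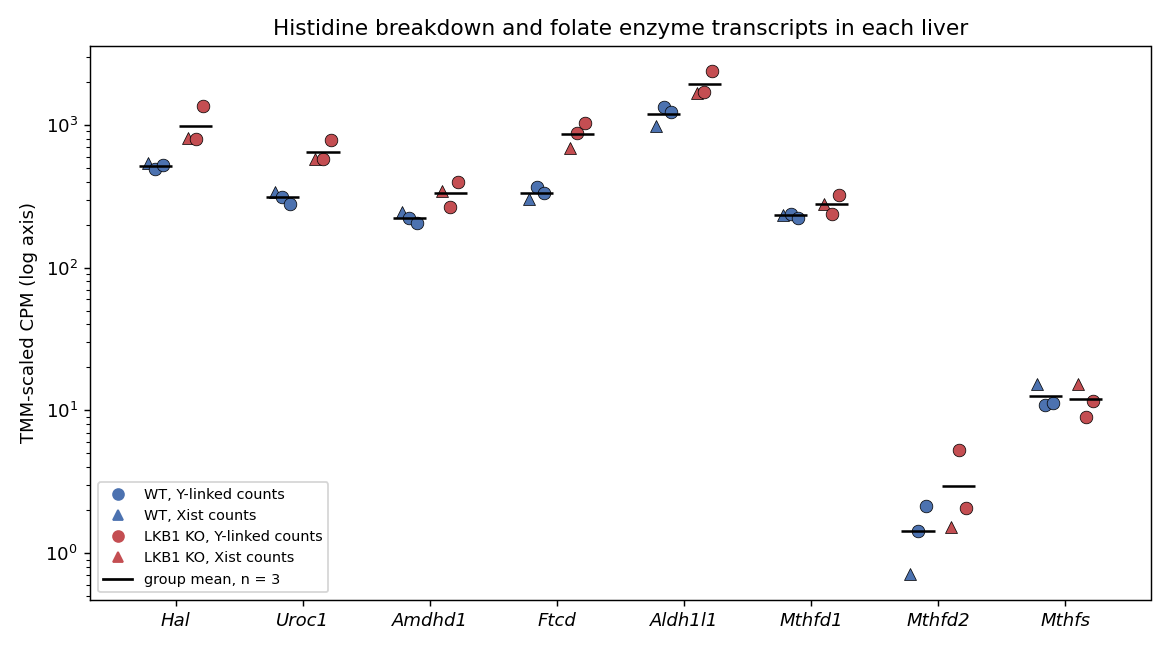
TMM-scaled CPM (log axis) of the 8 members in each of the 6 livers, WT in blue and knockout in red, with triangles for the libraries with Xist counts and a line at each group mean. Hal, Uroc1, Amdhd1, Ftcd, Aldh1l1 and Mthfd1 have no overlap between groups, whereas Mthfd2 and Mthfs overlap.

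Ftcd, the last enzyme of the route and the one that joins it to folate, had the lowest adjusted p-value of the 8. It was at 689.7, 878 and 1029 CPM in knockout replicates 1 to 3 and at 303, 367 and 332 CPM in WT replicates 1 to 3. The lowest knockout liver was well above the highest WT liver. The means were 866 ± 170.2 and 334 ± 32.0 CPM (SD, n = 3), a 2.59-fold difference. On the log2 scale this was 1.38 ± 0.209 (SE, edgeR adjusted p = 0.0281). Because Ftcd lies 3.525 Mb from the deleted gene, the 190 tested genes within 5 Mb of Stk11 were counted, and 1 of them, Ftcd itself, was called higher and 6 lower. Over all 14539 tested genes 177 were called lower. The share called higher near Stk11 was 0.526%, against 2.15% of all tested genes. The share called in either direction was 3.68%, against 3.37%. The median log2 fold change near Stk11 was -0.02. The part of this location in the Ftcd value was not tested.

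Uroc1, which uses up the urocanate made by Hal, also rose. Its values were 578, 575 and 783 CPM in knockout and 341, 313 and 279 CPM in WT. Knockout replicates 1 and 2 were almost equal and replicate 3 was higher, and no knockout liver reached down to the WT range. The means were 645 ± 119 and 311 ± 31.1 CPM (SD, n = 3), a 2.08-fold difference, and the log2 fold change was 1.05 ± 0.197 (SE, edgeR adjusted p = 0.044). Both calls needed nearly every library. They held without knockout replicate 1, with adjusted p-values of 0.00255 for Ftcd and 0.00832 for Uroc1. Leaving out any other single library (knockout 2 or 3, or WT 1, 2 or 3) gave 0.0693 to 0.159 for Ftcd and 0.0836 to 0.213 for Uroc1, with log2 fold changes of at least 1.23 and 0.89.

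Hal, the entry enzyme, had a similar size of difference but missed the threshold when all 6 livers were used. It was at 804, 789.6 and 1360.4 CPM in knockout and at 542, 493 and 521 CPM in WT. The groups did not overlap, yet knockout replicate 3 was 1.71 times the mean of the other knockout livers, whereas the WT livers had a coefficient of variation of 4.69%. The log2 fold change was 0.92 ± 0.257 (SE), or 1.90-fold, with an edgeR adjusted p-value of 0.0878. Hal passed without knockout replicate 1 (adjusted p = 0.0239) and when the 4 Y-positive libraries were fitted alone (adjusted p = 0.038). In those 4 libraries 3 members passed, all higher, where 17.2% of 14546 genes were called higher and 33.3% in either direction.

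Amdhd1, the ring-opening enzyme encoded next to Hal, showed the smallest difference of the 4. Its values were 342, 266 and 398 CPM in knockout and 244, 223 and 206 CPM in WT. The groups did not overlap, but knockout replicate 2 was close to the highest WT liver. The log2 fold change was 0.58 ± 0.193 (SE), or 1.495-fold, with an edgeR adjusted p-value of 0.123.

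The unequal sizes could be compared within each liver, where library scaling cancels. The ratio of Ftcd to Amdhd1 was 2.02, 3.30 and 2.59 in the knockout livers and 1.24, 1.64 and 1.61 in the WT livers. Every knockout liver thus had a higher ratio than any WT liver, 1.74-fold on average (two-sided exact permutation p = 0.1, adjusted p = 0.133). The ratio of Uroc1 to Amdhd1 was 1.69, 2.16 and 1.97 against 1.397, 1.41 and 1.36, again without overlap (exact permutation p = 0.1, adjusted p = 0.133). The ratios of Ftcd to Hal and of Ftcd to Uroc1 did not overlap either, but knockout replicate 1 (1.193) and WT replicate 3 (1.1904) nearly met in the ratio of Ftcd to Uroc1. The ratios of Hal to Amdhd1 and of Uroc1 to Hal overlapped between groups (exact permutation p = 0.2 and 0.3). In all 8 ratios were tested, and 3 livers against 3 cannot give a two-sided p below 0.1.

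**Figure D2:**
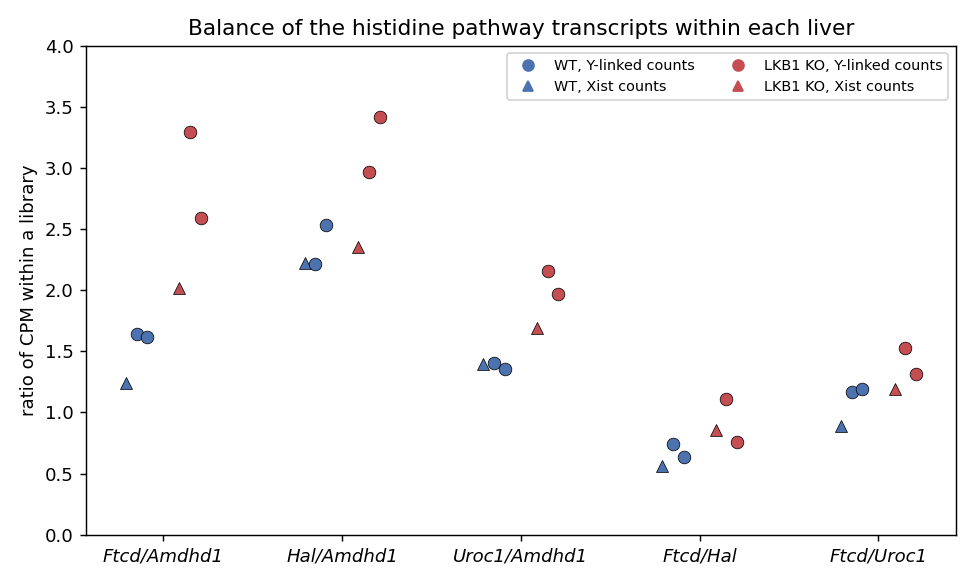
Ratio of the CPM of 2 histidine genes within each liver (linear axis from 0), WT in blue and knockout in red, with triangles for the libraries with Xist counts. For Ftcd to Amdhd1 the knockout livers sit between 2.02 and 3.30 and the WT livers between 1.24 and 1.64, whereas the groups overlap for Hal to Amdhd1.

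Among the folate enzymes, Aldh1l1 was the most abundant and had the lowest adjusted p-value. It was at 1681.5, 1699 and 2379 CPM in knockout and at 984, 1331 and 1236 CPM in WT. Knockout livers were all above WT livers, with WT replicate 1 the lowest of the 6. The log2 fold change was 0.70 ± 0.237 (SE), or 1.62-fold, and the edgeR adjusted p-value of 0.128 missed the threshold; without knockout replicate 1 it was 0.0467. The ratio of Aldh1l1 to Mthfd1 was 6.00, 7.11 and 7.35 in knockout and 4.20, 5.58 and 5.55 in WT (exact permutation p = 0.1).

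Mthfd1, the cytosolic hub enzyme, was at 280.03, 239.02 and 324 CPM in knockout and at 234, 238.62 and 223 CPM in WT. The groups were separated only by the gap between knockout replicate 2 and WT replicate 2, which were nearly equal. Its log2 fold change was 0.28 ± 0.165 (SE, edgeR adjusted p = 0.327).

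Mthfd2, the mitochondrial enzyme, had the lowest CPM of the 8, at percentile 21.6 of the tested genes in WT, with 36 to 294 counts per library. It was at 1.53, 5.29 and 2.06 CPM in knockout and at 0.71, 1.43 and 2.14 CPM in WT. The groups overlapped, and the log2 fold change of 1.06 ± 0.582 (SE, edgeR adjusted p = 0.295) fell to 0.34 without knockout replicate 2, the liver with the highest level.

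Mthfs was at 15.3, 9.06 and 11.7 CPM in knockout and at 15.3, 10.95 and 11.4 CPM in WT, with replicate 1 the highest in both groups. Its log2 fold change was -0.06 ± 0.232 (SE, edgeR adjusted p = 0.89). A transcript of Mthfs is 99.4% identical over 801 bases to one of Mthfsl, so its expected count depends on how reads were divided between these copies. Mthfsl ranged from 14.8 to 18.3 CPM among knockout livers and from 11.3 to 16.2 CPM among WT livers. Both genes together gave 28.9 ± 4.5 CPM in knockout livers and 26.8 ± 4.48 CPM in WT livers (SD, n = 3). The sum was formed after the data had been seen, and its log2 fold change was 0.11 (adjusted p = 0.723), of the opposite sign.

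**Figure D3:**
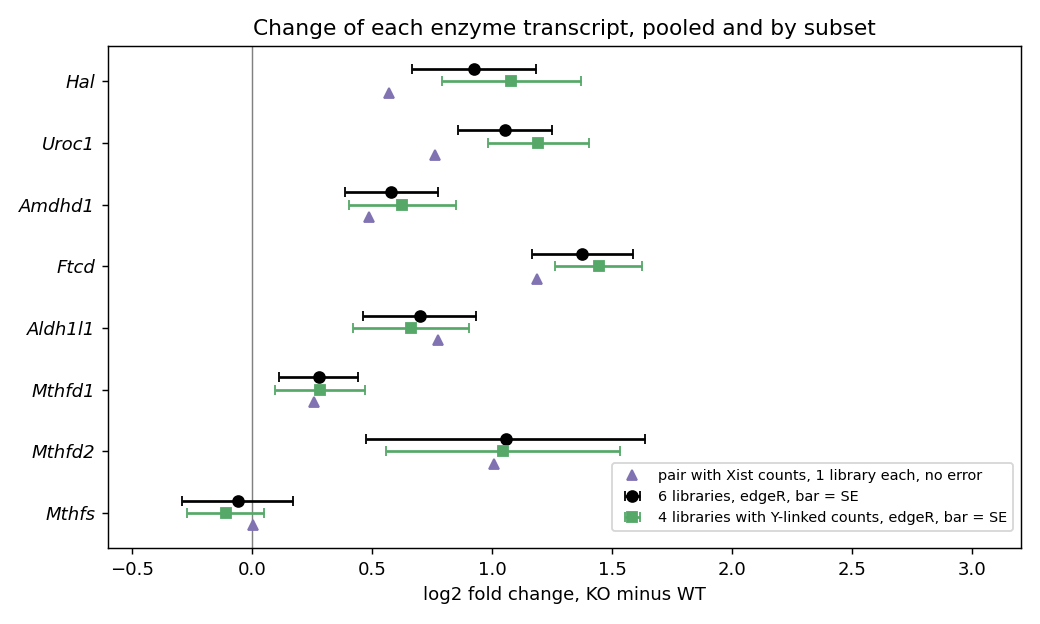
Log2 fold change (knockout minus WT) of the 8 members in all 6 libraries and in the 4 Y-positive libraries alone, each with its SE from edgeR, and the log2 ratio of the single pair with Xist counts, which has no error. Ftcd lies at 1.38, 1.44 and 1.19 and Mthfs near 0 in all 3.

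The 6 members without overlap between groups are above 0 in each subset by construction, so the subsets describe size only. The log2 ratio in the pair with Xist counts was 0.57 for Hal, 0.76 for Uroc1, 0.49 for Amdhd1, 1.19 for Ftcd, 0.77 for Aldh1l1 and 0.26 for Mthfd1, from 1 library a group and so without a replicate check. In the 4 libraries with Y-linked counts the edgeR log2 fold changes were 1.08, 1.19, 0.63, 1.44, 0.66 and 0.28. An interaction of group with Xist state passed an adjusted p-value of 0.05 in edgeR for 0 of the 8 members, and 0 had an unadjusted p-value under 0.05, while 2.9% of all tested genes passed. The test rests on a single pair of libraries on the Xist side. The lowest unadjusted value was 0.275, for Uroc1, and the difference of its log2 changes was -0.43.

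Levels of different genes were compared per kilobase of the longest coding transcript. In WT liver Aldh1l1 was the highest, at 284 ± 42.9 CPM per kilobase (SD, n = 3), followed by Ftcd at 173 ± 16.6. Hal at 97.5 ± 4.58, Amdhd1 at 92.6 ± 7.95 and Uroc1 at 89.8 ± 8.98 CPM per kilobase did not differ beyond their spread. Mthfd1 followed at 71.6 ± 2.54, then Mthfs at 15.4 ± 2.94 and Mthfd2 at 0.683 ± 0.343 CPM per kilobase. In knockout liver Ftcd, at 448 ± 88.0 CPM per kilobase, was within the spread of Aldh1l1, at 459.8 ± 95.2. Uroc1 and Hal were at 186 ± 34.4 and 185 ± 61.2, and Amdhd1 at 138 ± 27.2 CPM per kilobase. These levels depend on the length used. Per kilobase of all annotated exons, Ftcd was at 105 ± 10.03 CPM in WT, within about its spread of Hal at 93.5 ± 4.39 and Amdhd1 at 92.6 ± 7.95. On that scale knockout Ftcd, at 271 ± 53.3, lay below Aldh1l1, at 425 ± 88.0, and WT Mthfs was at 1.64 ± 0.314 CPM per kilobase.

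All 6 members without overlap were highest in knockout replicate 3 among the knockout livers. The same library was the highest for 25.9% of all tested genes and for 42.7% of those with every knockout above every WT liver. Its scaling factor was 0.927, the lowest of the 6, which raised the values of every gene in that library alike. The part of scaling in this rank was not tested.

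The genes whose profile over the 6 livers was most like that of Hal were Pck1, Kyat3, Ahcy, mt-Nd1 and Qdpr. Likeness was the root-mean-square difference of log2 CPM profiles, each centred on its mean, among 7503 genes with a mean of at least 10 CPM, and it was 0.0967, 0.114, 0.115, 0.116 and 0.118. Pck1 is the gluconeogenic enzyme phosphoenolpyruvate carboxykinase, Kyat3 a kynurenine aminotransferase, Ahcy the enzyme that splits S-adenosylhomocysteine, mt-Nd1 a mitochondrially encoded subunit of complex I, and Qdpr the enzyme that regenerates tetrahydrobiopterin. Uroc1 ranked 22, Aldh1l1 99, Amdhd1 142 and Ftcd 539 on this measure. The neighbour Amdhd1 was thus less like Hal than Uroc1 on another chromosome.

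Of 40 other genes of histidine and folate metabolism, 37 were tested, 3 were called higher, 1 was called lower and 33 were not called. Their median log2 fold change was 0.24, against 0.01 over all tested genes. Among all tested genes 2.15% were called higher and 3.37% in either direction. Of the 37, every knockout liver was above every WT liver for 12 and below for 5. Over all tested genes 16.9% were separated upward and 32.4% in either direction. The calls were Mthfd1l, Gnmt and Slc7a2 as higher and Cndp2 as lower.

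Mthfd1l, the mitochondrial synthetase that turns formyl-folate into formate for the cytosol, changed most. It was at 5.35, 28.95 and 17.2 CPM in knockout and at 0.71, 0.636 and 0.556 CPM in WT. WT livers were close to each other and the knockout livers spread widely, with replicate 1 the lowest. The log2 fold change was 4.75 ± 0.636 (SE, edgeR adjusted p = 0.0212), and the single Xist pair gave 2.75. The call held without knockout replicate 1 or 2 and was lost without knockout 3 or without any of the WT replicates, with adjusted p-values from 0.055 to 0.138, and also in limma voom (0.0783).

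Gnmt, which methylates glycine and binds folate, was at 2682, 2965 and 4699 CPM in the knockout livers and 993, 1116 and 1019.6 CPM in the WT livers, a log2 fold change of 1.73 ± 0.277 (SE, edgeR adjusted p = 0.032). Slc7a2, a transporter of cationic amino acids, rose by 2.15 ± 0.247 on the log2 scale (edgeR adjusted p = 0.0147). Cndp2, a dipeptidase that can split carnosine, was at 24.4 to 31.3 CPM in the knockout livers, below the 41.5 to 43.4 CPM of the WT livers, a log2 fold change of -0.64 ± 0.128 (SE, edgeR adjusted p = 0.0488). The Cndp2 call was also lost in limma voom (0.0507), with library-size scaling (0.0823) and with no filter (0.0518). Without knockout replicate 1 all 3 calls held. The Gnmt and Cndp2 calls were lost without any other single library, at 0.0636 to 0.167 and 0.106 to 0.215, and that of Slc7a2 without WT 2 or WT 3, at 0.112 and 0.104.

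The serine hydroxymethyltransferases, which load one-carbon units onto folate, had values of opposite sign and did not pass the test. Cytosolic Shmt1 had a log2 fold change of 1.04 ± 0.234 (SE, edgeR adjusted p = 0.0607), with every knockout above every WT liver, and mitochondrial Shmt2 -0.29 ± 0.163 (adjusted p = 0.307), with every knockout below. Dmgdh and Sardh, which demethylate dimethylglycine and sarcosine, were at 0.36 ± 0.167 and -0.01 ± 0.273. Tyms, which makes thymidylate, was at 0.33 ± 0.214, and Mtr, the methionine synthase, at -0.28 ± 0.157. The mitochondrial enzymes Aldh1l2 and Mthfd2l were at 0.93 ± 0.372 and 0.47 ± 0.332, from levels of at most 1.27 CPM in every liver. The folate carrier of mitochondria Slc25a32 was at 0.07 ± 0.112, the histidine and glutamine transporter Slc38a3 at 0.36 ± 0.21, and Hnmt, which methylates histamine, at -0.13 ± 0.326. The values after ± are SE, and adjusted p-values of these genes in edgeR were 0.172 or higher apart from Shmt1.

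**Figure D4:**
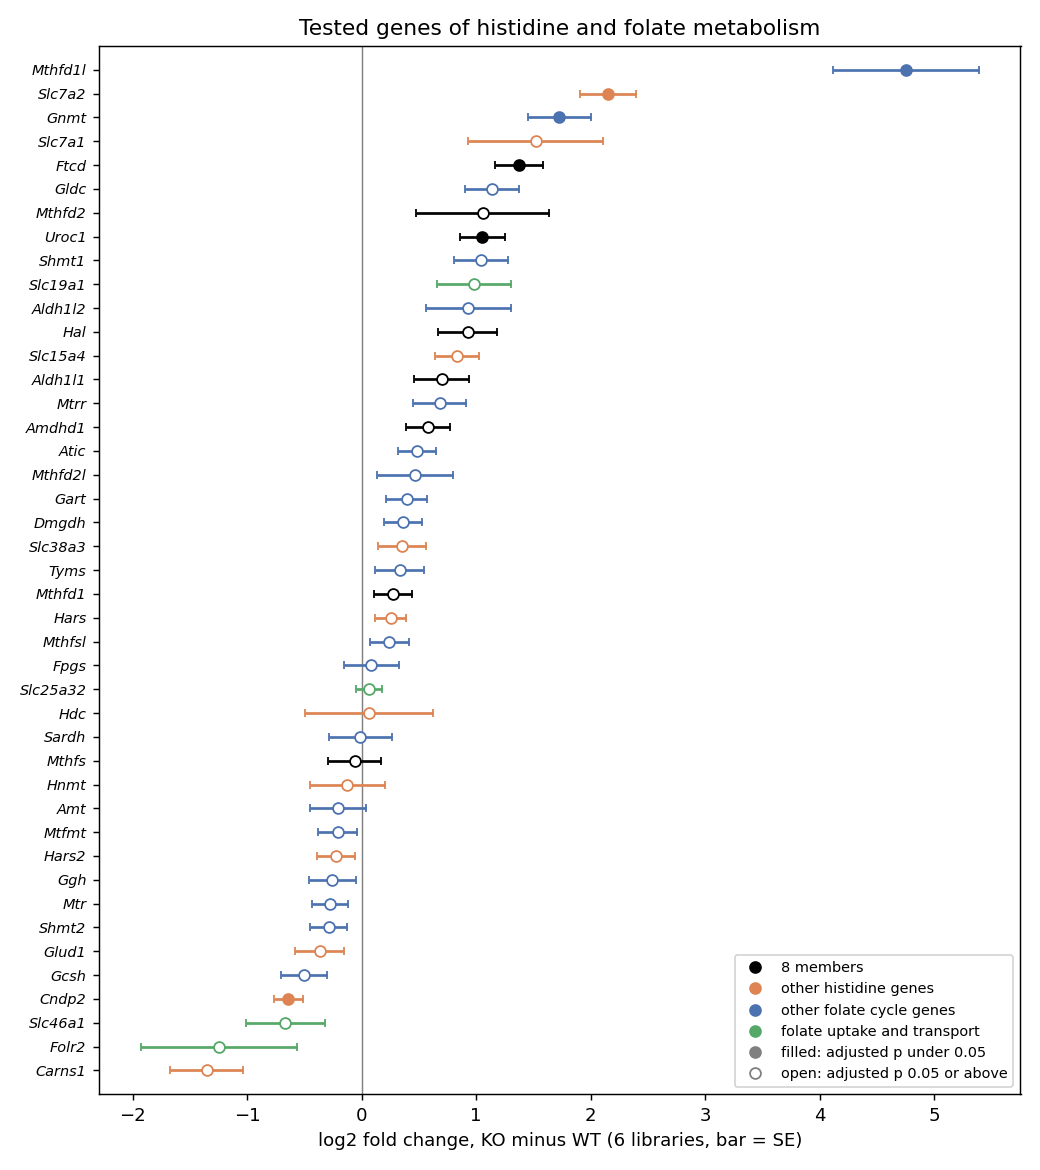
Log2 fold change (knockout minus WT, bar = SE, 6 libraries) of the 8 members in black and of 35 of the 37 other tested genes of histidine and folate metabolism in colour, ordered by value, with filled points for an adjusted p-value under 0.05. The 6 filled points are Mthfd1l, Slc7a2, Gnmt, Ftcd and Uroc1 on the right and Cndp2 on the left.

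Summed levels of lobule zone, hepatocyte and endothelial markers did not overlap between the groups. Of 14 periportal genes 6 were called higher and 0 lower, with a median log2 fold change of 2.02 and a summed level of 26190.0 to 47494 CPM across knockout livers against 11596 to 12636 CPM across WT livers. The log2 fold change was above 0 for 13 of them. Cyp2f2 was the 1 below 0, at 152 to 614 CPM in knockout against 690 to 1260 CPM in WT. Of 14 pericentral genes 2 were called higher and 1 lower, with a median of -0.59 and sums of 7193 to 8962 against 10266 to 11682 CPM. The log2 fold change was above 0 for 4 of these genes and below 0 for 10. Large parts of the pericentral sums came from 2 genes that went opposite ways. Cyp2e1 was at 463 to 2167 against 5521 to 6754 CPM, and Oat at 3568 to 4983 against 482 to 538 CPM. Of 7 hepatocyte markers found (8 listed) 0 were called in edgeR and 3 had an unadjusted p-value under 0.05, with a median of -1.08 and sums of 21553 to 70647 against 85795 to 127850.0 CPM, and none of the 7 was below 524 CPM in any liver. Much of these sums was Alb, at 10394 to 50550 against 57064 to 95626 CPM. The log2 fold change was below 0 for 6 of the 7. It was above 0 for Hnf4a, at 542 to 670 against 524 to 539 CPM. Of 7 endothelial markers 0 were called and 6 had an unadjusted p-value under 0.05. Their median was -0.75, with sums of 72.9 to 120.4 against 146 to 198 CPM. Over all 14539 genes tested in edgeR, 3817 had an unadjusted p-value under 0.05, so such a value is common in these data.

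The other lists had 0 calls in edgeR, with 0 unadjusted p-values under 0.05 for 7 macrophage, 7 stellate and 6 cholangiocyte markers and 1 each for 6 lymphocyte and 2 tested neutrophil markers. Their sums in knockout and WT were 102 to 227 and 141 to 194 CPM for macrophages, 108 to 218 and 171 to 359 CPM for stellate cells, and 24.95 to 74.9 and 39.6 to 73.1 CPM for cholangiocytes. They were 0.743 to 2.44 and 2.31 to 3.57 CPM for lymphocytes and 0.612 to 0.755 and 0.237 to 0.347 CPM for neutrophils, with Ly6g at 0 in every library. Of 5 pancreatic acinar genes Cpa1, Prss2, Pnlip and Ctrb1 were at 0 in every library and Cela2a was at most 0.591 CPM. The part of these markers in the members' values was not tested.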

How the data were processed

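Poly(A) RNA of 6 livers (3 per group) was sequenced as paired reads of 76 nt in 1 pool, per the labels' protocols. The authors deposited expected counts per gene, 1 column per mouse, and every column matched a sample (0 unmatched). The submitters' processing notes name cutadapt 1.18, STAR 2.7.0f, RSEM 1.3.1 and mm9, but all 55450 versioned gene identifiers are those of GENCODE M21 for GRCm38, from which positions were taken. Use of strand is not given in the sources used here. Annotated genes that overlap the 8 members had at most 4 counts in any library.

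Expected counts were rounded, filtered with filterByExpr (14539 genes kept), TMM-scaled and compared by group alone with the quasi-likelihood test of edgeR 4.0.16 under R 4.3.3. P-values were adjusted over all genes tested by the Benjamini-Hochberg method, with a threshold of 0.05. SE is the log2 fold change divided by the square root of F. Ratios for the Xist pair use an offset of 0.1 CPM, and log2 CPM profiles a prior count of 2. A floor of 3 counts is 0.0515 to 0.0641 CPM. Similar transcripts were sought with blastn 2.17.0, at 90% identity or more over at least 150 bases. The test was tried on simulated counts. The members, motifs and lists (histidine and folate genes, lobule zones, cell types) were chosen with earlier results of these data known. Named genes were the 8 members, Stk11, the called genes and 15 set genes of the other histidine and folate lists (2 of which are counted but not reported here), and the 5 genes most like Hal; others were named after their values were seen. Alternatives were limma voom 3.58.1, DESeq2 1.42.0, library-size scaling, no filter, each library left out, the replicate number as a block, Xist state as a term, and the libraries with Y-linked counts alone. Summing Mthfs and Mthfsl was chosen after seeing the data.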

Additional observations from a re-analysis of the deposited data

How the results depend on the processing

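Hal, Uroc1, Amdhd1, Ftcd, Aldh1l1, Mthfd1 and Mthfd2 kept a higher level in knockout under all 13 alternatives each, and Ftcd and Uroc1 passed the threshold in 7 of the 13. For the 6 members without overlap between groups, fits to part of the libraries are above 0 by construction. The other fits reuse the same livers, so the count of signs is no separate check. Leaving out 1 library gave log2 fold changes of 0.62 to 1.07 for Hal, 0.89 to 1.13 for Uroc1, 0.44 to 0.73 for Amdhd1, 1.23 to 1.51 for Ftcd, 0.51 to 0.79 for Aldh1l1, 0.16 to 0.39 for Mthfd1, 0.34 to 1.47 for Mthfd2 and -0.28 to 0.12 for Mthfs, which was 0.12 without knockout replicate 2, 0.11 without WT replicate 1 and 0.11 with Mthfsl added. It gave 0 to 4 called members, 0 to 17 called other histidine and folate genes and 6 to 4473 called genes in all, against 2, 4 and 490. Without knockout replicate 1 these were 4, 17 and 4473; leaving out any other library gave 0 members. DESeq2 called 5 members, 9 other pathway genes and 2290 genes, and added Hal (0.91), Amdhd1 (0.57) and Aldh1l1 (0.69). Limma voom called 2 other pathway genes. Using no filter called 771 genes, and 1607 genes for the interaction, against 421. Xist state as a term called 1504 genes. The 4 libraries with Y-linked counts called 18 other pathway genes and 4847 genes, with Hal at 1.08. Library-size scaling called 511 genes with 74.4% of them higher, against 63.9%. The cause was not tested.

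Same-numbered livers are different mice with no pairing in the labels, so the numbers were not taken as pairs. The correlations of their deviations from the group means were 0.178, 0.0443 and 0.0679 for numbers 1 to 3. Deviations of 3 livers from their mean sum to 0, so these correlations depend on each other and cannot settle whether livers were paired. A replicate block called 105 genes, 0 members and 0 other pathway genes, with Ftcd at 1.36 (adjusted p = 0.0703) and Uroc1 at 1.04 (adjusted p = 0.0967). Knockout 1 correlated best with WT 1, the other liver with Xist counts. Knockout 2 and 3 each correlated best with a WT liver of another number, at 0.120 with WT 3 and 0.203 with WT 2. Of the members, 6 had 9616 to 112080 counts a library and Mthfd2 had 36 to 294; the part of depth in its missed call was not tested.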

Other observations

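Cytosolic and mitochondrial arms of folate metabolism can be set side by side in the same livers. The ratio of Mthfd1l to Mthfd1, the mitochondrial and the cytosolic enzyme with formyl-folate synthetase activity, ran 0.0191, 0.121 and 0.0532 over the knockout livers, against 0.00303, 0.00267 and 0.0025 over the WT livers (ratio of CPM, exact permutation p = 0.1, the smallest that 3 against 3 can give). Every knockout liver was above every WT liver, by 18.3-fold on average. The interaction of group with Xist state for Mthfd1l had an unadjusted p-value of 0.00744 and an adjusted p-value of 0.11 in edgeR, so the smaller difference in the pair with Xist counts was not called.

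Gldc, the decarboxylase of the glycine cleavage system, which also loads methylene-folate in mitochondria, was named after its values were seen. It was at 342, 507 and 626 CPM in knockout and at 224.04, 224.1 and 221 CPM in WT, with a log2 fold change of 1.14 ± 0.239 (SE, edgeR adjusted p = 0.0541). Gcsh, a carrier protein of the same system, had a log2 fold change of -0.50 ± 0.20 (SE, edgeR adjusted p = 0.169), with every knockout liver below every WT liver.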
